A study of Equus caballus with 25 samples.

Results

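CYP3A89, CYP3A97, CYP2E1 and POR, which encode 3 cytochromes P450 and the reductase that feeds them electrons, were followed through the oestrous cycle in the endometrium, the lining of the uterus, of the mare. They are 4 genes with 9 of the 43603 probes on the array. CYP3A89 had 2 probes, CYP3A97 had 1, CYP2E1 had 5 and POR had 1. A probe belonged to a gene where the RefSeq transcript named in the scanner output was one of that gene's transcripts. The genes had been picked for their levels over the days on these same arrays. Their levels and the differences between days are therefore described without a test.

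The samples were transcervical endometrial biopsies of 5 normally cycling Bavarian Warmblood mares, and the labels name no treatment. The groups were day 0 (ovulation, called ovulatory phase), day 3 (early luteal), day 8 (mid luteal), day 12 (late luteal) and day 16 (start of the following ovulatory phase), with 5 arrays in each, 1 per mare. The biopsies of a mare came from different cycles, so a mare's 5 values are not a continuous course. Mares 1 to 5 are the replicate numbers of the sample titles, taken to mark the same animal on each day. Separate mares stood behind the 5 arrays of a day, and their number limits the precision of every mean.

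The cytochromes P450 of the endoplasmic reticulum are haem enzymes that insert oxygen into steroids, fatty acids and foreign compounds. They take their electrons from NADPH through POR. In humans and rodents, enzymes of the CYP3A family are abundant in liver and gut and hydroxylate steroids, progesterone among them, as well as many drugs. CYP2E1 is known there for oxidising small molecules such as ethanol, acetone and some fatty acids. POR also serves squalene epoxidase and haem oxygenase. The corpus luteum secretes progesterone in the luteal phase, and the uterine lining becomes secretory in that time.

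Levels are log2 signals relative to the 75th percentile of the same array, so 0 means as bright as that percentile, and levels of different probes are not compared with each other. That percentile lay between 1597 and 2494 signal units on the 5 arrays of day 3, above the 694 to 1555 of day 0, and the part of this gap in differences between those days was not tested. Tests covered 35770 of the 43603 probes, those that cleared the background on 4 or more arrays of some day, and all 9 probes of the 4 genes were among them. The probes passed this filter through the days on which they are high. Of the 7 slides, 5 held arrays of a single mare, so that mare and slide largely coincide. In whole tissue, fewer cells of a type and less RNA per cell cannot be told apart. Of 10 epithelial markers only ESRP1 had a named probe, and its median linear level over days 0, 3, 8, 12 and 16 was 9.49, 7.49, 7.93, 8.56 and 8.22 times the percentile. Its difference passed the limma test in none of the 6 comparisons made (adjusted p between 0.432 and 0.939).

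**Figure D1:**
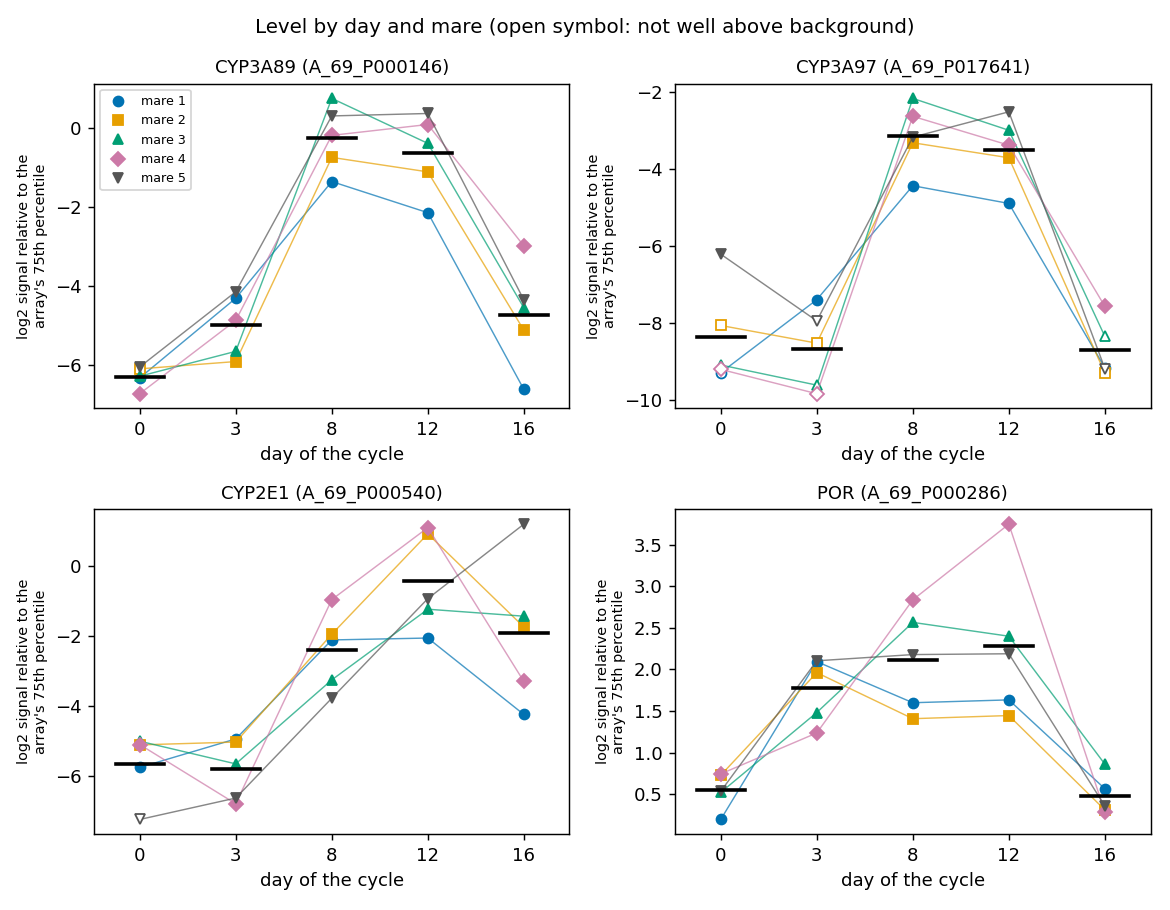
Level of the brightest probe of each gene (y axis, log2 signal relative to the 75th percentile of the array) by day of the cycle (x axis), with 1 line and symbol per mare and the day mean as a bar. CYP3A89 and CYP3A97 are high at days 8 and 12 alone, CYP2E1 stays high in some mares at day 16, and POR is high from day 3 to day 12. Open symbols were not well above background.

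The 2 CYP3A genes were low at ovulation, high at days 8 and 12 and low again at day 16. Over days 0, 3, 8, 12 and 16, CYP3A89 averaged −6.30 ± 0.27, −4.98 ± 0.79, −0.24 ± 0.83, −0.63 ± 1.01 and −4.72 ± 1.32 (SD, n = 5 each). CYP3A97 averaged −8.37 ± 1.31, −8.66 ± 1.05, −3.14 ± 0.85, −3.49 ± 0.90 and −8.71 ± 0.74 on the same days. They belong to a cluster of 6 CYP3A genes in the RefSeq table of the assembly TB-T2T, in which CYP3A94, CYP3A95 and CYP3A96 lie between them. The other 4 genes of the cluster had no probe matched by accession. Whether each probe reads only its own gene was not tested.

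The brightest CYP3A89 probe, A_69_P000146, read −6.33, −6.10, −6.28, −6.73 and −6.05 in mares 1 to 5 at day 0. It read −4.31, −5.91, −5.65, −4.87 and −4.14 in the same mares at day 3. Every mare was thus higher at day 3, and the 2 days did not overlap, by a gap of 0.14. At day 8 the 5 mares read −1.35, −0.74, 0.76, −0.18 and 0.31. At day 12 they read −2.14, −1.10, −0.38, 0.10 and 0.38. These 2 days overlapped, 3 mares being lower and 2 higher at day 12. At day 16 the values were −6.62, −5.12, −4.55, −2.98 and −4.35, all of them below all values of day 12. Ranked by their means the days run 8, 12, 16, 3 and 0, and neither days 8 and 12 nor days 16 and 3 differed beyond their spread.

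Within mares, CYP3A89 was higher at day 8 than at day 3 by 4.74 ± 1.25 (SD of the 5 differences), which is 26.7-fold, with differences from 2.96 to 6.41. At day 16 it was lower than at day 12, with a difference of −4.09 ± 0.63 (17.1-fold) and values from −4.72 to −3.08. The step at day 3 over day 0 was smaller, at 1.32 ± 0.85 (2.50-fold), and the processed signals were between 8.15 and 22.7 at day 0. It was 0.06 with normexp background correction, which starts from the unprocessed median signals and adds an offset of 50. Under that correction the step at day 8 over day 0, 6.06 ± 0.86 (66.6-fold), came to 3.79. The second probe, A_69_P126001, cleared the background on none of the day 0 arrays and on 3 of 5 at day 3. It gave a difference of 4.78 ± 0.93 at day 8 over day 3 and of −4.23 ± 0.33 at day 16 against day 12, and was at least 18.6-fold higher at day 8 than at day 0. Its difference of day 12 from day 8 was 0.04 ± 0.39, where the brighter probe gave −0.39 ± 0.58. Such a bound sets the mean of the bright day against the lowest signal well above background on each dim array.

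CYP3A97, the other CYP3A gene, read −9.29, −8.06, −9.09, −9.20 and −6.20 in mares 1 to 5 at day 0, and −7.39, −8.52, −9.61, −9.83 and −7.94 at day 3. It was well above background in mare 5 alone at day 0 and in mare 1 alone at day 3. At day 8 it read −4.43, −3.31, −2.16, −2.62 and −3.16, and at day 12 −4.89, −3.70, −2.98, −3.37 and −2.50, well above background on all 10 arrays. Mare 1 was the lowest at both times. At day 16 the values were −9.16, −9.30, −8.34, −7.56 and −9.18, with mare 4 alone well above background. Days 8 and 12 overlapped, as did days 0, 3 and 16, and no value of the one set reached the other.

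CYP3A97 was higher at day 8 than at day 3 by 5.52 ± 1.86 (46-fold), with differences from 2.96 to 7.45 within mares. At day 16 against day 12 the difference was −5.22 ± 1.03 (37.2-fold). On days 0, 3 and 16, 4 of 5 arrays were at background. The size of these 2 differences rests on signals of 1.825 to 14.88 units at day 3 and 1.528 to 19.56 at day 16. With normexp they were 2.17 and −2.03. Over the 25 arrays, and after each probe was centred on its own mean, CYP3A97 and CYP3A89 differed by a root mean square of 0.98, against 2.54 for CYP3A97 and CYP2E1 and 2.18 for CYP3A97 and POR. That makes CYP3A97 and CYP3A89 the closest pair among the 4 genes.

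**Figure D2:**
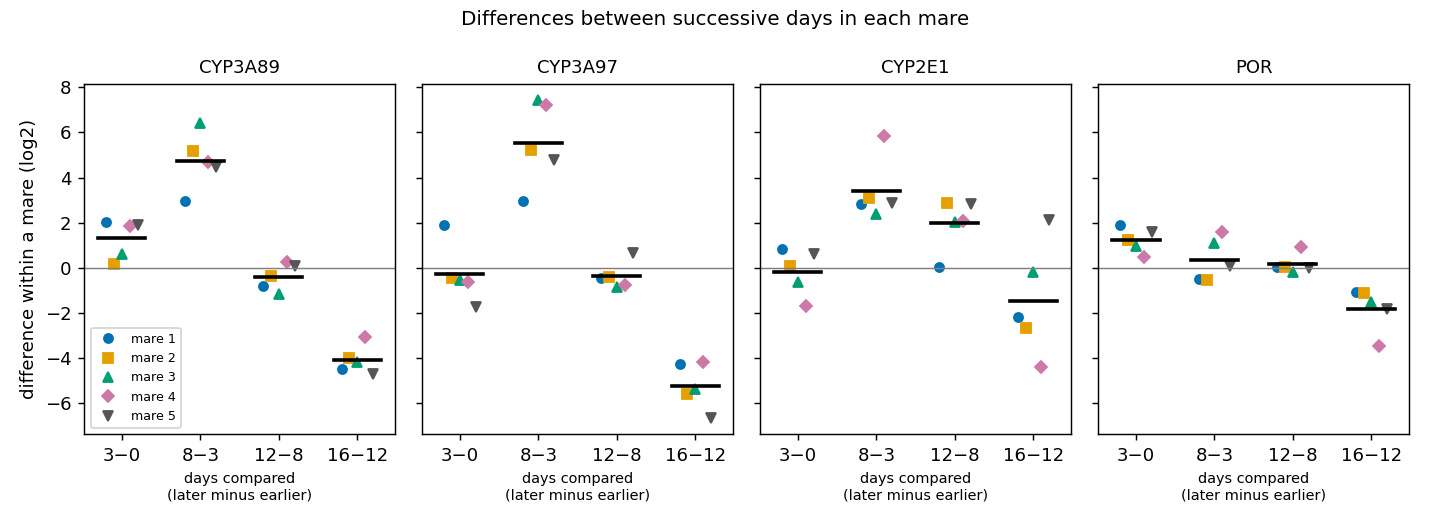
Difference in log2 level between successive days within each of the 5 mares (y axis; later day minus earlier day), for the brightest probe of each gene, with the mean as a bar. CYP3A89 and CYP3A97 are lower at day 16 than at day 12 in all 5 mares, whereas CYP2E1 is lower in 4 and higher in mare 5.

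CYP2E1 was low at days 0 and 3, higher at day 8, highest on average at day 12 and widely spread at day 16. Its brightest probe averaged −5.63 ± 0.94, −5.80 ± 0.87, −2.40 ± 1.12, −0.43 ± 1.39 and −1.90 ± 2.08 over days 0, 3, 8, 12 and 16. By mean level the days run 12, 16, 8, 0 and 3, and only the step between day 8 and day 0 in that order had no overlap between arrays. The day 0 values were −5.75, −5.10, −5.00, −5.09 and −7.23 in mares 1 to 5, and those of day 3 were −4.93, −5.02, −5.65, −6.79 and −6.62. The differences of day 3 from day 0 went both ways, 3 mares being higher and 2 lower.

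At day 8 CYP2E1 read −2.10, −1.94, −3.25, −0.95 and −3.77 in mares 1 to 5, above every value of day 3. The difference from day 3 was 3.40 ± 1.38 (10.5-fold) and ranged from 2.40 to 5.83 between mares. At day 12 the values were −2.05, 0.93, −1.23, 1.11 and −0.92. Mares 2 to 5 were higher at day 12 than at day 8 by 2.02 to 2.87, and mare 1 by 0.05. The mean difference was 1.97 ± 1.15 (3.92-fold), while the same difference was −0.39 ± 0.58 for CYP3A89 and −0.35 ± 0.60 for CYP3A97, within their spread.

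At day 16 CYP2E1 read −4.23 in mare 1, −1.73 in mare 2, −1.42 in mare 3, −3.29 in mare 4 and 1.21 in mare 5. These values span 43.4-fold between mares. The differences from day 12 were −4.40 in mare 4, −2.66 in mare 2, −2.18 in mare 1 and −0.20 in mare 3, against 2.13 in mare 5. Mare 5 had its highest CYP2E1 at day 16, and the other 4 mares had theirs at day 12. The mean difference of −1.46 ± 2.50 was within the spread of the mares, and it ranged from −2.36 without mare 5 to −0.73 without mare 4. All 5 mares still read more at day 16 than any mare at day 0, by 3.74 ± 2.78. In mare 5 the day 12 and day 16 arrays lay on different slides, and the part of the slide in that difference was not tested. The 75th percentile of the day 16 arrays ran from 873.8 in mare 1 to 3699 in mare 4. Its part in the day 16 spread was not tested.

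The 5 CYP2E1 probes gave the same course. On arrays where both probes of a pair were well above background, 15 to 24 of 25, their centred values differed by a root mean square of 0.11 to 0.47. The difference of day 12 from day 8 was between 1.92 and 1.99 on all 5 probes, and on 3 of them mare 1 was slightly lower at day 12. The day 16 value of mare 5 was between 1.01 and 1.29, and that of mare 1 between −6.34 and −4.23. The probes parted at the dim end. A_69_P000536 cleared the background on none of the arrays of days 0 and 3, and was at least 23.0-fold higher at day 8 than at day 3. The other 4 probes gave log2 differences of 3.40 to 4.30 at that step, which is 10.55-fold to 19.69-fold.

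**Figure D3:**
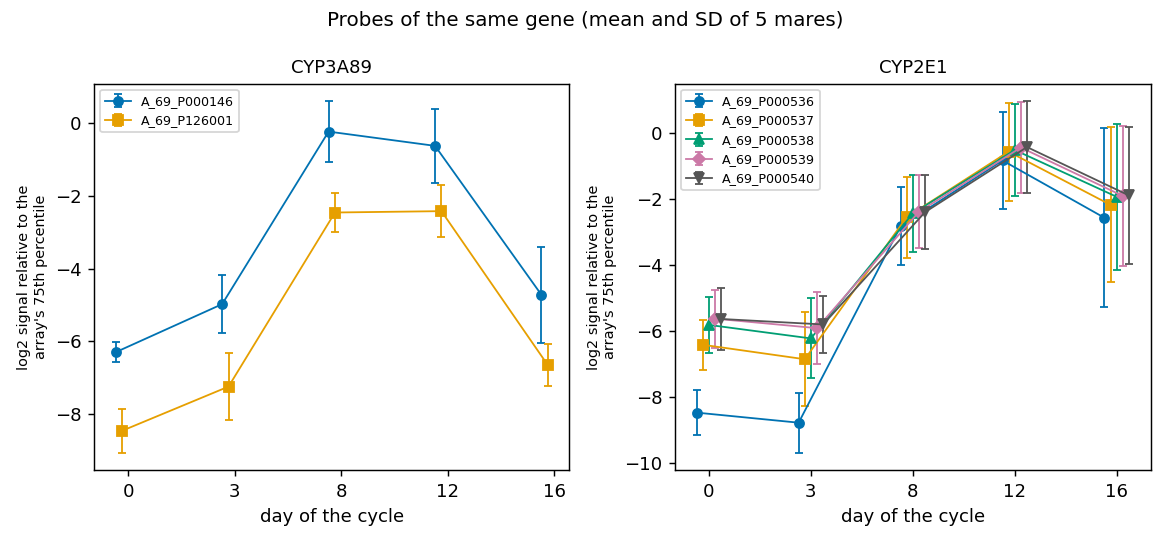
Mean log2 level and SD of the 5 mares (y axis) by day of the cycle (x axis) for the 2 probes of CYP3A89 and the 5 probes of CYP2E1. The probes of a gene are high and low on the same days, and A_69_P000536 of CYP2E1 is lower than its 4 companions at days 0 and 3, where it was at background.

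POR, the reductase, was bright on all arrays and moved less, with its higher level reached already at day 3. Over days 0, 3, 8, 12 and 16 it averaged 0.55 ± 0.22, 1.78 ± 0.39, 2.12 ± 0.61, 2.28 ± 0.91 and 0.48 ± 0.24. The 5 mares read 0.20, 0.73, 0.52, 0.75 and 0.54 at day 0, and 2.09, 1.96, 1.48, 1.24 and 2.10 at day 3. Day 3 was higher in all 5 mares and free of overlap, by 1.23 ± 0.54 (2.34-fold).

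At day 8 POR read 1.60, 1.41, 2.57, 2.84 and 2.18 in mares 1 to 5. Against day 3 the differences were −0.49 and −0.55 in mares 1 and 2, 1.08 and 1.60 in mares 3 and 4, and 0.07 in mare 5. The mean difference of 0.34 ± 0.96 was thus smaller than its spread, on the step where all 3 cytochromes P450 were higher in all 5 mares. At day 12 POR read 1.64, 1.45, 2.40, 3.74 and 2.19, with mare 4 the highest. At day 16 the values closed up to 0.57, 0.31, 0.86, 0.29 and 0.36, all below those of day 12, a difference of −1.80 ± 0.97 (3.49-fold). The mean of day 16 differed from that of day 0 by −0.07 ± 0.40, and in order of mean the days run 12, 8, 3, 0 and 16, with overlap between neighbours except between days 3 and 0.

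Counted over the 9 probes, 8 had no overlap between arrays in being higher at day 8 than at day 3, all but POR, against 6.11% of all tested probes. The 4 probes of the CYP3A genes and POR were lower at day 16 than at day 12 without overlap (3.42% of all tested probes), and none of the 5 CYP2E1 probes was. Against day 0, day 16 was higher without overlap on 6 probes, the 5 of CYP2E1 and the dimmer one of CYP3A89 (1.76% of all tested probes). Higher at day 3 than at day 0 without overlap were the brighter CYP3A89 probe and POR (4.58%). All 9 probes were higher at day 8 than at day 0 without overlap (9.27%), and none separated day 12 from day 8 (5.14% of all tested probes higher, 4.41% lower). Since the genes were picked on these days, these counts are descriptions. Within slides that held both days, the brightest probes gave differences from 2.96 to 5.47 for CYP3A89, 2.96 to 6.99 for CYP3A97 and 2.83 to 4.69 for CYP2E1 at day 8 over day 3 (4 slides). At day 16 against day 12 (3 slides) they gave −4.48 to −3.08 for CYP3A89, −5.36 to −4.19 for CYP3A97, −4.40 to −0.20 for CYP2E1 and −3.45 to −1.07 for POR. For POR at day 3 over day 0 they were 0.49 to 1.57 (3 slides). At day 8 over day 3 and at day 3 over day 0, 1 of these slides set different mares against each other. That slide gave the upper end of each range at day 8 over day 3.

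The order of the mares was not the same for each gene. On the brightest probes at day 8, mare 3 had the highest CYP3A89 and CYP3A97 and the second lowest CYP2E1. Mare 4 had the highest CYP2E1 and POR. On the second CYP3A89 probe mare 5 was the highest at day 8, at −1.66 against −2.30 in mare 3. Mare 1 had the lowest value of both CYP3A genes at days 8 and 12. CYP3A89 in mare 5 lay above the day mean on all 5 days on the brightest probe and on 4 on the second. In mares 1 and 2 it lay below that mean on 4 of 5 days on both probes. Whether the mares differed over the 5 days was not used to choose the genes and was tested with limma in a model of day and mare. None of the 9 probes passed, where 12.9% of all tested probes did, or 4623 probes. That number was 5 with slide in the model, 1436 with normexp and between 729 and 5783 over omissions of an array or mare. Unadjusted, 1 probe had p under 0.05, the brighter one of CYP3A89 (adjusted p = 0.137, 0.996 with slide in the model, and 0.0367 without the day 3 array of mare 1, the only omission of an array or mare under which it passed). CYP2E1 had an adjusted p of 0.75 on its brightest probe, CYP3A97 of 0.531 and POR of 0.521. Of the 9 probes, 5 were of CYP2E1, and values at background on the dim days entered the test. That none passed therefore does not show that the mares were alike.

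The spread between mares was set against that of the other probes on the same day. The SD of CYP2E1 at day 16, 2.08, was exceeded by 0.772% of all tested probes, whose median SD that day was 0.51. At day 12 its SD of 1.39 was exceeded by 1.12%. POR had an SD of 0.91 at day 12, exceeded by 4.86% of probes, but of 0.22 and 0.24 at days 0 and 16, which 88.9% and 89.4% of probes exceeded. CYP3A89 was most even at day 0, with an SD of 0.27 near its background level, and most uneven at day 16, with 1.32.

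**Figure D4:**
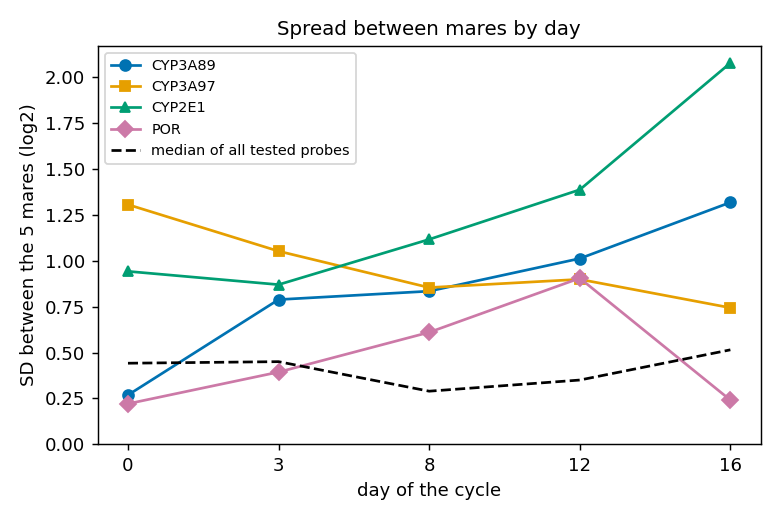
SD between the 5 mares of the log2 level (y axis) by day of the cycle (x axis) for the brightest probe of each gene, with the median SD of all 35770 tested probes as a dashed line. CYP2E1 is the most uneven at days 8, 12 and 16, reaching 2.08 at day 16, and POR lies below the dashed line at days 0, 3 and 16.

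The rest of the P450 system was followed through 5 lists of genes, and 21 of their genes other than these 4 had a tested, named probe. Of these 21, 9 passed limma's F test over the 5 days, where 35.8% of all tested probes and 223 of the 514 tested named genes did. In single comparisons 2 passed at day 3 against day 0, 3 at day 8 against day 3, none at day 12 against day 8 (6 at an unadjusted p under 0.05), 1 at day 16 against day 12, 2 at day 16 against day 0 and 5 at day 8 against day 0. The shares of all tested probes in these comparisons were 12.7%, 13.8%, 1.08%, 8.08%, 4.69% and 22.0%. Of the 514 tested named genes, 76, 71, 12, 57, 39 and 129 passed in them. With the mare as a block, 2 listed genes passed at day 12 against day 8, PGRMC1 (−0.87, adjusted p = 0.0318) and AKR1C1 (1.78, adjusted p = 0.0194), and TPMT, a methyltransferase of thiopurines named after its values were seen, passed beside ESR1 at day 16 against day 12 (0.79, adjusted p = 0.0361).

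Among the 7 other cytochromes P450, CYP19A1, the aromatase that makes oestrogens, rose at day 8 over day 3 and the other 6 did not pass. It read between −1.10 and 0.48 at day 8 (median −0.14), against −3.02 to −1.18 at day 3 (median −2.50), a difference of 1.86 ± 0.53 (SE; adjusted p = 0.0206, limma) in 5 of 5 mares. Its other 8 probes were too dim to be tested. Without mare 4 the difference was 1.45 (adjusted p = 0.114), without mare 1 1.66 (0.0892) and without mare 2 2.07 (0.0515), and it also failed without the day 3 or the day 8 array of mare 4 (0.0617 and 0.0651) or when mare and slide were both fitted (0.066). The median difference of the 7 genes at that step was −0.02, against 0.08 over all tested probes. CYP2C92 and CYP2D50, relatives of the drug-oxidising enzymes of the liver, were at 0.44 ± 0.28 (adjusted p = 0.344) and −0.02 ± 0.47 (0.988). CYP17A1 and CYP11A1, of steroid synthesis, were at −0.07 ± 0.22 (0.884) and −0.17 ± 0.62 (0.898). At day 16 against day 12 none of the 7 passed, with a median of −0.40, against −0.07 over all tested probes. CYP2C92, named after its values were seen, was the only one besides CYP19A1 to pass the F test over the days (adjusted p = 0.0375).

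Of 3 redox partners and electron acceptors with a named probe, PGRMC1, a haem protein that binds P450 enzymes, rose. It read between 5.81 and 6.55 at day 8 (median 6.04), against 5.11 to 5.78 at day 3 (median 5.18), and was above every value of day 3. The difference was 0.83 ± 0.23 (SE; adjusted p = 0.0153, limma) and 1.30 ± 0.23 against day 0 (adjusted p = 0.000249), in 5 of 5 mares each, and a second probe gave 0.81 and 1.05 (0.00760 and 0.000550). The first difference was 0.77 (adjusted p = 0.0707) with the arrays scaled by their median. It was 0.70 (0.114) without mare 3, 0.81 (0.0643) without mare 2, 0.83 (0.0586) without mare 4 and 0.73 (0.0503) without the day 8 array of mare 3. CYB5A, the cytochrome b5 that hands electrons to some P450 enzymes, was at 0.15 ± 0.20 at day 8 over day 3 (adjusted p = 0.691) and 0.00 ± 0.20 at day 16 against day 12 (0.995). NOS2, the inducible nitric oxide synthase, whose reductase part resembles POR, was at −0.09 ± 0.38 (adjusted p = 0.911) at the first of these steps. None of the 9 genes of haem synthesis listed had a named probe.

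Of 37 listed regulators of P450 genes, 2 had a named probe, and the receptors of foreign compounds and of progesterone were not among them. ESR1, the oestrogen receptor alpha, was lower at day 8 than at day 0, with a difference of −1.07 ± 0.26 (SE; adjusted p = 0.00384) and rose at day 16 over day 12 by 1.08 ± 0.26 (adjusted p = 0.00894), in 5 of 5 mares each. Its 5 other probes gave −0.32 to −0.27 and 1.18 to 1.28 at these steps and passed at neither. At day 3 against day 0 those 5 gave 0.67 to 0.72, where the brightest probe gave −0.45, and none passed. On the brightest probe, the difference of day 8 from day 0 was −0.64 after quantile normalization (adjusted p = 0.0601). Without mare 2 the adjusted p were 0.0538 and 0.0558, and without mare 3 that of the rise was 0.0873. Neither passed when mare and slide were both fitted (0.156 and 0.0839). PPARGC1A, a coactivator of genes of energy metabolism, fell at day 3 against day 0, with a difference of −1.71 ± 0.40 (adjusted p = 0.00746), and its second probe passed as well. It was also lower at day 8 than at day 0, with a difference of −1.49 ± 0.40 (adjusted p = 0.00898). Without mare 2 these p were 0.062 and 0.0735, and without mare 1 the first was 0.0528. Fitting mare and slide together left differences of −1.26 (0.274) and −0.96 (0.403), neither of which passed.

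Among 9 genes of conjugation, other oxidation and defence against oxygen radicals, SOD1 and GPX3 rose. SOD1, the cytosolic superoxide dismutase, read between 4.90 and 5.38 at day 8 (median 4.98), against 3.83 to 4.70 at day 3 (median 4.12), and was higher by 0.87 ± 0.17 (SE; adjusted p = 0.00134) in 5 of 5 mares. Its difference of day 3 from day 0, 0.55 ± 0.17 (adjusted p = 0.0376), did not pass when the arrays were scaled by their median (0.0574), with no filter on dim probes (0.0505) or with slide in the model (0.0797), and 9 omissions of an array or mare took it to between 0.0638 and 0.278, the highest without mare 1. Fitted with mare plus slide, it was 0.30 (0.556). At day 16 against day 0 SOD1 was higher by 0.91 ± 0.17 (adjusted p = 0.00464, and 0.0841 without mare 2), but by 0.63 (0.272) when mare and slide were both fitted. GPX3, a secreted glutathione peroxidase, was higher at day 8 than at day 0 by 1.98 ± 0.41 (adjusted p = 0.00115). It was also higher at day 16 than at day 0, by 1.65 ± 0.41 in 4 of 5 mares (adjusted p = 0.0195), and 5 other probes passed at both steps. The second difference was 1.18 (0.185) without mare 5 and did not pass without mare 2, 3 or 4 (0.105, 0.0878 and 0.0679), or without the day 16 array of mare 2 or 5 (0.0687 and 0.0516) or the day 0 array of mare 5 (0.0581). At day 8 over day 3 its brightest probe gave 1.08 ± 0.41 (adjusted p = 0.082, and 0.0492 with the mare as a block), while the 5 other probes passed (0.0102 to 0.026). AKR1C1, which in humans reduces progesterone, is named after its values were seen. It passed the F test over the days (adjusted p = 0.033), and was higher at day 12 than at day 8 in 5 of 5 mares, by 1.78 ± 0.53 (adjusted p = 0.0969). Its probe A_69_P129101 passed at that step (2.09, adjusted p = 0.0414), as did A_69_P000706 (0.00291), which was well above background on 4 of 5 arrays at day 12 and on 0 of 5 at day 8, and also passed at day 16 against day 12 (−2.58, adjusted p = 0.0354). SULT1E1, the sulphotransferase that inactivates oestrogens, passed in no comparison, at 0.35 ± 0.43 (adjusted p = 0.669) at day 8 over day 3.

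**Figure D5:**
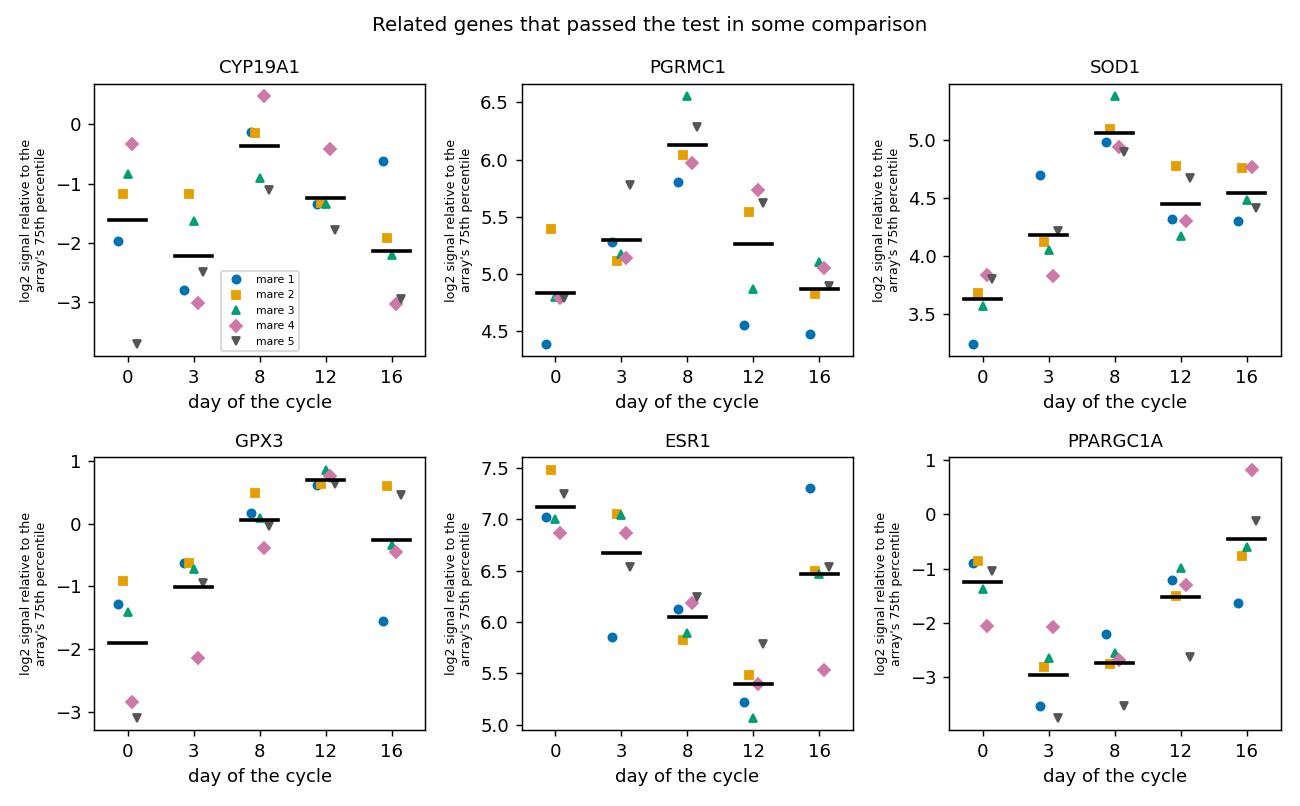
Log2 level (y axis) by day of the cycle (x axis) for the 6 related genes that passed the test in some comparison, with 1 symbol per mare and the day mean as a bar. On the brightest probe of each gene, shown here, CYP19A1, PGRMC1 and SOD1 are highest on average at day 8. GPX3 is highest at day 12, ESR1 at day 0 and PPARGC1A at day 16.

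Genes whose course was most like that of each of the 4 were sought among 510 other named genes, by the root mean square difference of centred levels over the 25 arrays. For CYP3A89 the nearest were P19, the lipocalin uterocalin secreted by uterine glands (1.49), LGB1, a beta-lactoglobulin (1.5), and CTTNBP2, a cortactin-binding protein (1.53). For CYP3A97 they were LGB1 (1.70), CTTNBP2 (1.73) and FST, the activin-binding follistatin (1.93). For CYP2E1 they were P19 (1.66), GPX3 (1.70) and CTTNBP2 (1.77), and the median over all 510 was 2.53. POR was closest to SLC11A1, a metal ion transporter of phagocytes (0.53), PLIN2, which coats lipid droplets (0.62), and FAM133B (0.64), with a median of 1.12. None of the 3 nearest to CYP3A89 came as close to it as CYP3A97 did.

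Markers of other cells moved at some of these steps. The stromal genes LUM and DCN, 2 of 8 listed with a named probe, had summed linear levels of 29.8 to 45.0, 8.62 to 25.2, 11.8 to 16.1, 12.6 to 20.0 and 18.2 to 36.9 over days 0, 3, 8, 12 and 16, with the lowest medians on days 8 (13.4) and 12 (16.1). Leukocyte markers, 4 of 9 with a named probe, summed to 1.32 to 1.71 at day 8, against 1.81 to 2.54 at day 3, and to 2.73 to 3.92 at day 12. The smooth muscle gene TAGLN, 1 of 5 with a named probe, rose at day 16 over day 12, with levels of 0.458 to 1.19 at day 16, against 0.193 to 0.320 at day 12 (difference 1.46 ± 0.32, adjusted p = 0.00494, limma), the step at which all 4 genes averaged lower. LUM also rose there (1.65 ± 0.35, adjusted p = 0.00405), and the leukocyte gene GNLY rose at day 12 over day 8 (1.23 ± 0.27, adjusted p = 0.0295). The endothelial PECAM1, 1 of 5 with a named probe, lay between 1.42 and 2.14 at day 12, above the 0.856 to 1.22 of day 8 (0.74 ± 0.19, adjusted p = 0.0516). Of 11 hepatocyte markers, ALB and TF had a named probe and summed to 0.215 to 0.294 at day 8, against 0.165 to 0.276 at day 3. ALB, the gene of serum albumin, was 0.69 ± 0.19 (SE) higher at day 8 than at day 3 (adjusted p = 0.0177, limma) and had a difference of −0.90 ± 0.19 at day 3 against day 0 (adjusted p = 0.00443). TF, which encodes transferrin, was at −0.25 ± 0.29 at day 8 against day 3 (adjusted p = 0.641). The part of these markers in the differences above was not tested.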

How the data were processed

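The scanner files deposited by the authors hold intensities. Agilent Feature Extraction 10.7.3.1 had subtracted the local background and detrended each array, per the file headers. No scaling between arrays is recorded. The value table equalled this processed signal on all 25 arrays.

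For each array the log2 signal minus its 75th percentile was computed, without spots marked as outliers. The median of all tested probes was −0.11 at day 3 minus day 0 on this scale. Tests used limma 3.58.1 (R 4.3.3) on all 25 arrays in 1 model of the day, two-sided, with Benjamini-Hochberg adjustment over the tested probes. The code was tested on simulated data. Those had independent noise of equal spread and no slide effect, so they do not show how the tests behave with shared slides. Figures used matplotlib 3.10.9.

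RefSeq accessions (TB-T2T) named 1243 probes, and probes with other identifiers were not used here. A gene is its brightest named probe. Named were all probes of the 4 genes, up to 4 called genes per list and comparison, and the 3 genes nearest to each of the 4. FMOD, caught by the prefix of another family, was left out after its values were seen. Genes, lists and tests were chosen with earlier results of these data known.

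Replicate numbers in the sample titles were taken to mark the mare, which the titles do not say. Over pairs of arrays, deviations from the mean of the day correlated with a median r of 0.245 within mares (0.120 across slides) and −0.047 between mares. Alternatives were quantile or median scaling, normexp, other filters, kept outliers, mare or slide terms, and omitted arrays or mares. Leaving out day 16 from the comparison of mares was chosen after seeing the data, and no result of it is given here.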

Additional observations from a re-analysis of the deposited data

How the results depend on the processing

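No direction reversed among the called differences, and those of the 4 genes between days moved beyond the spread of the mares in 9 cases. With normexp, whose offset of 50 compresses dim signals by construction, CYP3A89 was at 0.0641 (day 3 minus day 0), −3.17 (16 minus 12) and 3.79 (8 minus 0), CYP3A97 at 2.17 (8 minus 3), −2.03 (16 minus 12) and 1.46 (8 minus 0), and CYP2E1 at 1.67 (8 minus 0). Normexp also gave 8586 called probes for day 3 minus day 0 and 7907 for 16 minus 0, against 4558 and 1677, with 4 and 6 listed genes, against 2 and 2, and 1436 probes that differed between mares, against 4623. Quantile normalization gave 603 for 12 minus 8, against 385, and 2409 between mares. Scaling by the median and no filter on dim probes each left 1 listed gene for 3 minus 0, and no filter gave 215 probes for 12 minus 8 and 3316 for 16 minus 0. With the mare as a replicate block, 859 probes and 2 listed genes passed for 12 minus 8 and 2 listed genes for 16 minus 12. With slide in the model, 1 listed gene passed for 12 minus 8 and 5 probes differed between mares. With mare and slide together, CYP3A89 was at 2.32 (3 minus 0) and 6.95 (8 minus 0), 7820 probes passed the F test, against 12811, and 744 passed for 3 minus 0, 4 for 12 minus 8, 1732 for 16 minus 12 (2892 before), 152 for 16 minus 0 and 2423 for 8 minus 0 (7858 before), with 0 listed genes for 3 minus 0 and for 16 minus 12. Of 13 named differences of listed genes, 7 lost their call there, those of SOD1 (3 minus 0 and 16 minus 0), PPARGC1A and ESR1 (both steps each) and CYP19A1. Over omissions of an array or mare, the F test called 7519 to 13972 probes, and the comparisons 1507 to 6417 (3 minus 0), 3086 to 5422 (8 minus 3), 0 to 619 (12 minus 8), 1255 to 3161 (16 minus 12), 108 to 3200 (16 minus 0) and 4610 to 8330 (8 minus 0). Listed genes ranged from 0 to 2, 1 to 4, 0 to 2, 0 to 2, 0 to 4 and 3 to 6 in these comparisons and from 5 to 9 in the F test. Between mares 729 to 5783 probes passed and 0 to 1 of the 9 probes, with an adjusted p of 0.0367 to 0.402 for CYP3A89. The causes of these shifts were not tested. Normexp also started from the unprocessed median signals, so the part of its offset was not separated. Probe specificity within the CYP3A cluster was not tested, and signals at background limit the sizes given for CYP3A97.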

Other observations

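At day 16, the highest value among the 5 mares was in mare 5 for CYP2E1 (1.21), P19 (7.81) and CTTNBP2 (1.65), and in mare 2 for GPX3 (0.60, against 0.46 in mare 5). The lowest of all 4 was in mare 1 (−4.23, 4.82, 0.56 and −1.56). CYP3A89, to which P19 and CTTNBP2 were also near, was highest in mare 4 (−2.98), where CTTNBP2 was second lowest (0.57). FST, near to CYP3A97, was highest in mare 4 (0.51), as CYP3A97 was (−7.56). P19, CTTNBP2, GPX3 and FST had been picked as nearest over the same arrays, those of day 16 included. A shared order of the mares can therefore follow from that choice. CYP3A97 was well above background at day 16 in mare 4 alone. These orders of 5 mares were seen in the data and were not tested. By the 75th percentile, the array of mare 1 was the dimmest of day 16 and that of mare 4 the brightest.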
